A study of Homo sapiens with 15 samples.

Results

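The libraries described here are the 3 IMR90 libraries labelled shTHBD set 1, set against the 3 IMR90 control libraries with a non-targeting shRNA. They were chosen by their labels and are 6 of the 15 libraries of the series. RNA was read over all genes: the count table listed 59428 genes, and 15411 of them passed a filter on low counts and were tested. IMR90 is a line of normal human lung fibroblasts. All 6 libraries came from cells labelled with HRAS G12V, an always active form of the RAS protein that is used to drive fibroblasts into senescence. The control cells were thus under HRAS G12V too, and no library of proliferating IMR90 was analysed here. Whether the cells of each group had reached senescence was not tested. The control cells carried a non-targeting shRNA, a short hairpin RNA with no intended target, and the other 3 libraries came from cells labelled as having a hairpin against THBD, the gene of thrombomodulin. A further 3 IMR90 libraries labelled shTHBD set 2, under the same HRAS G12V, are used here only where they show how set 1 differs. The remaining 6 libraries, of the liver cancer line Huh7, are not used. The series' stated question is whether THBD is needed to establish senescence.

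The labels do not say what the set number stands for, how HRAS G12V was delivered, or whether the 3 libraries of a group came from separate cultures, so the tests rest on the spread among libraries, and this may be technical. The growth text of the labels also describes replicative senescence by long passaging, while the treatment label of each library names HRAS G12V. Libraries held 18256773 to 21509229 counted fragments. The log2 scale is used throughout: 1 is a doubling, and an error after ± is an approximate standard error from the test. A gene was called higher or lower where edgeR's quasi-likelihood test, with Benjamini-Hochberg adjustment over all 15411 genes, gave an adjusted p under 0.05. Levels are given in CPM, the count scaled to the size of its library, which compare libraries for 1 gene and not genes with each other.

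Senescent cells stop dividing for good, held by cell cycle inhibitors such as p21 and p16, and they release cytokines, chemokines, proteases and growth factors known as the senescence-associated secretory phenotype (SASP). In fibroblasts with active RAS, IL-1 signalling and the transcription factor NF-kB drive much of this secretion. Thrombomodulin is a membrane receptor best known on the endothelium, where it binds thrombin and turns it from a clotting enzyme into an activator of protein C; thrombin and activated protein C also cleave and switch on protease-activated receptors, of which F2R is the main thrombin receptor.

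THBD RNA was higher, not lower, in the libraries labelled as its knockdown. Its level was 16.6, 18.9 and 20.1 CPM in the control libraries and 41.2, 38.2 and 39.2 CPM in those labelled set 1. Every set 1 library lay above every control library, at 2.12-fold the control level (log2 fold change 1.09 ± 0.076 SE, adjusted p = 1.2e-20). In the libraries labelled set 2 THBD read 9.94, 10.96 and 10.8 CPM, below all control libraries, with a log2 fold change of -0.81 ± 0.09 against control. The difference between the sets was 1.90 ± 0.083 (adjusted p = 2.5e-32). The state described below is therefore that of the libraries labelled set 1, not that of cells shown to have less THBD RNA, and the protein was not measured here.

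THBD lies on chromosome 20, minus strand, at 23045633 to 23049672 (GRCh38, as in the count table). The next tested gene along the chromosome, CD93, was also among the largest rises. CD93, a transmembrane receptor related to thrombomodulin and likewise known from endothelial cells, read 1.48, 1.08 and 1.92 CPM in control and 19.5, 16.9 and 17.04 CPM in set 1, 11.7-fold higher (log2 fold change 3.55 ± 0.16 SE, adjusted p = 9.3e-31). Of the tested genes that follow, NXT1 (log2 fold change 0.18 ± 0.10) and GZF1 (0.12 ± 0.074) were not called, and NAPB was higher by 0.71 ± 0.11.

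**Figure D1:**
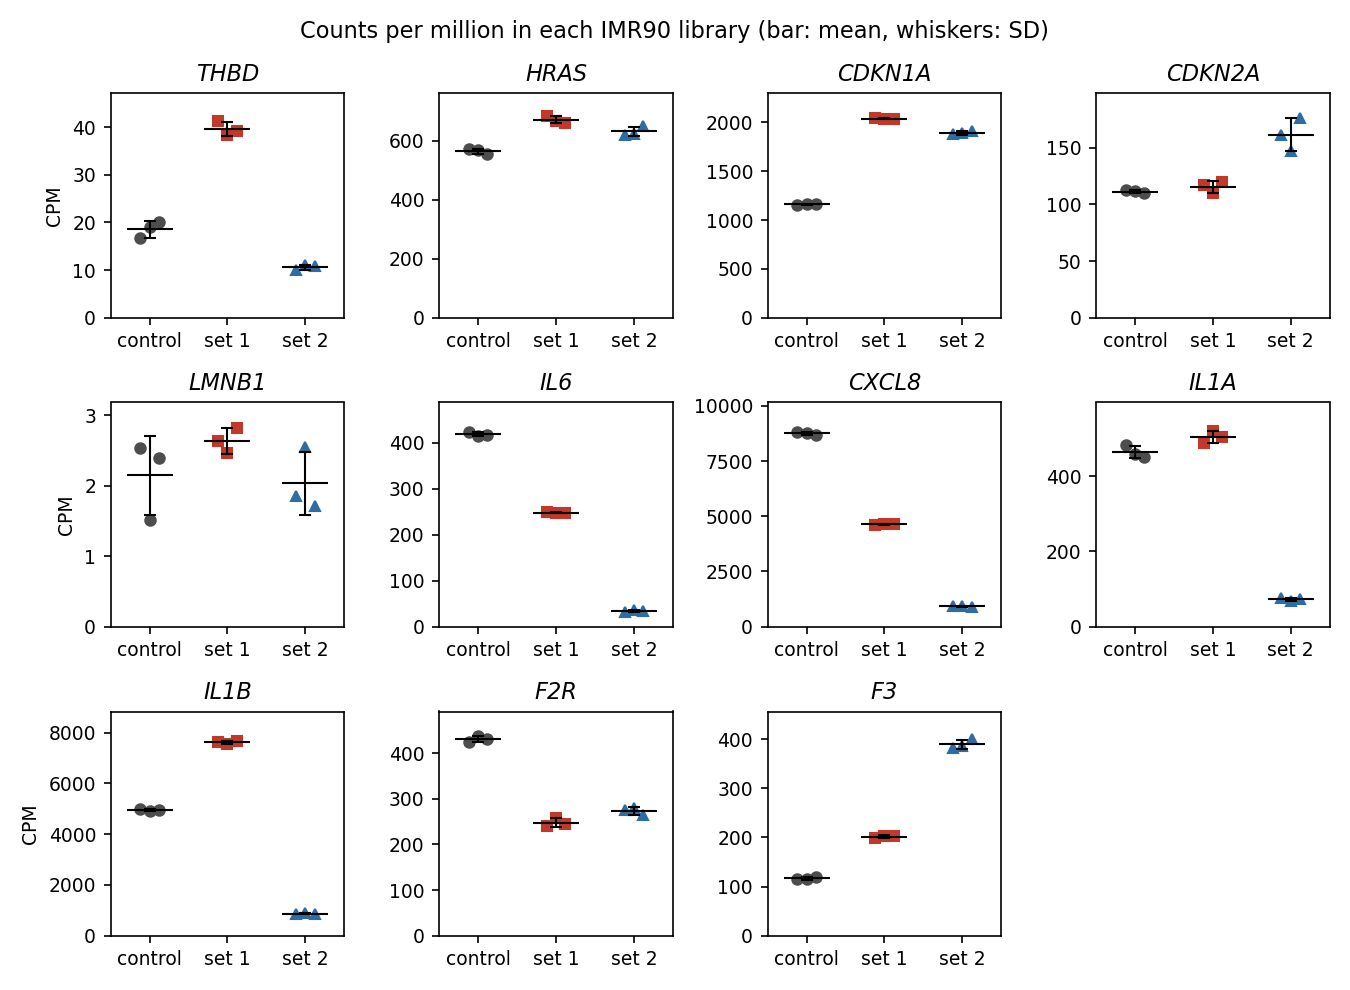
Levels (CPM) of THBD, HRAS, senescence genes, SASP cytokines and thrombin pathway genes in each IMR90 library (points), with the mean (bar) and SD (whiskers) of control, set 1 and set 2; every axis starts at 0. THBD stands above control in set 1 and below it in set 2, while IL6 and CXCL8 are below control in both.

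The count of HRAS itself cannot tell an introduced transcript from the cell's own, and whether both were counted is not known. HRAS read 571, 567 and 554 CPM in control and 684, 667 and 660.0 CPM in set 1 (log2 fold change 0.25 ± 0.023 SE, adjusted p = 2.3e-15). The groups did not overlap, and the libraries labelled set 1 read 1.19-fold the HRAS level of control. CDKN1A, which encodes the cell cycle inhibitor p21, rose from 1159, 1161 and 1160.4 CPM to 2044, 2039 and 2038 CPM (1.76-fold, log2 fold change 0.81 ± 0.018 SE, adjusted p = 2.3e-49). No difference was called for CDKN2A, the p16 and ARF gene, at 112, 112 and 109.7 CPM against 117, 109.9 and 119.7 CPM (log2 fold change 0.05 ± 0.042, adjusted p = 0.28), and the 2 groups overlapped. LMNB1, the lamin whose loss marks senescence, was low in both groups, with means of 2.14 and 2.64 CPM, and was not called either (log2 fold change 0.29 ± 0.24, adjusted p = 0.32).

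Changes were many and mostly small. Of the 15411 genes, 8297 (53.8%) were called, 4213 higher (27.3%) and 4084 lower (26.5%); upper-quartile scaling turned this balance, with 3786 higher and 4486 lower. The median size of the change over all genes tested was 1.22-fold, and the median log2 fold change was -0.0019. At 2-fold or more, 584 genes were higher (3.79%) and 668 lower (4.33%); at 4-fold or more, 133 were higher (0.863%) and 83 lower (0.539%). The libraries of the 2 groups did not overlap for 9166 genes (59.5%). The replicates of a group were close, with a common biological coefficient of variation of 3.13%.

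CRYAB showed the largest rise among genes with at least 10 CPM. This small heat shock protein, also known as alpha-B crystallin, read 0.317, 0.647 and 0.562 CPM in control and 56.3, 50.1 and 50.4 CPM in set 1, 101-fold higher (log2 fold change 6.66 ± 0.15 SE, adjusted p = 1.4e-49). Its exons share bases with HSPB2 on the other strand, which did not pass the filter. MMP9, a gelatinase of the SASP, rose from 10.5, 11.8 and 10.6 CPM to 163, 156 and 159 CPM (14.5-fold, log2 fold change 3.86 ± 0.061), and no set 1 library came near a control library. SERPINA1, the inhibitor of neutrophil elastase, rose from 17.7, 15.5 and 16.2 CPM to 138, 136 and 148 CPM (8.55-fold, log2 fold change 3.10 ± 0.058). The set 1 libraries were again all above control, by a wide gap.

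A pair of lipid genes stood among the 12 largest rises: G0S2, an inhibitor of the triglyceride lipase ATGL, went from a mean of 6.83 to 55.1 CPM (log2 fold change 3.01 ± 0.10), and GPAT3, which starts triglyceride synthesis, from 15.9 to 108 CPM (2.76 ± 0.06). The late cornified envelope genes LCE3D (0.499 to 10.5 CPM, 4.40 ± 0.23) and LCE2A (1.93 to 11.2 CPM, 2.53 ± 0.18) also rose, from very low levels. These genes are best known from keratinocytes. CCL3 went from 6.86 to 37.7 CPM (2.46 ± 0.10) and its near-identical copy CCL3L1 from 4.57 to 26.9 CPM (2.56 ± 0.13); reads of such copies may be split or lost, so their separate values are uncertain. TMEM151B (3.23 ± 0.17), whose exons share bases with AARS2 on the other strand, and EPB41L4B (2.46 ± 0.12) complete the 12.

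PLAT showed the largest fall under the same rule. PLAT, the tissue-type plasminogen activator, read 523, 521 and 525 CPM in control and 73.8, 72.5 and 76.2 CPM in set 1, 7.05-fold lower (log2 fold change -2.82 ± 0.03 SE, adjusted p = 4.8e-69). EPAS1, the hypoxia-inducible factor HIF-2 alpha, fell from 156, 154 and 163 CPM to 29.4, 30.6 and 28.5 CPM (5.35-fold, log2 fold change -2.42 ± 0.045), again without overlap. NID2, a basement membrane protein, fell from 298, 294 and 302 CPM to 69.5, 68.6 and 68.2 CPM (log2 fold change -2.12 ± 0.037); part of its exons is shared with RTRAF on the other strand, which was not called. The falls of the matrix gene MXRA5 (-2.56 ± 0.13), the chemokine CXCL6 (-2.46 ± 0.085), the oxidised LDL receptor OLR1 (-2.39 ± 0.15), VWA5A (-2.20 ± 0.089), the splicing factor subunit LSM4 (-2.16 ± 0.063) and PCYOX1L (-2.10 ± 0.13) were of like size, and ALDH1L2, CHAC1 and PHGDH are described with amino acid supply below.

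**Figure D2:**
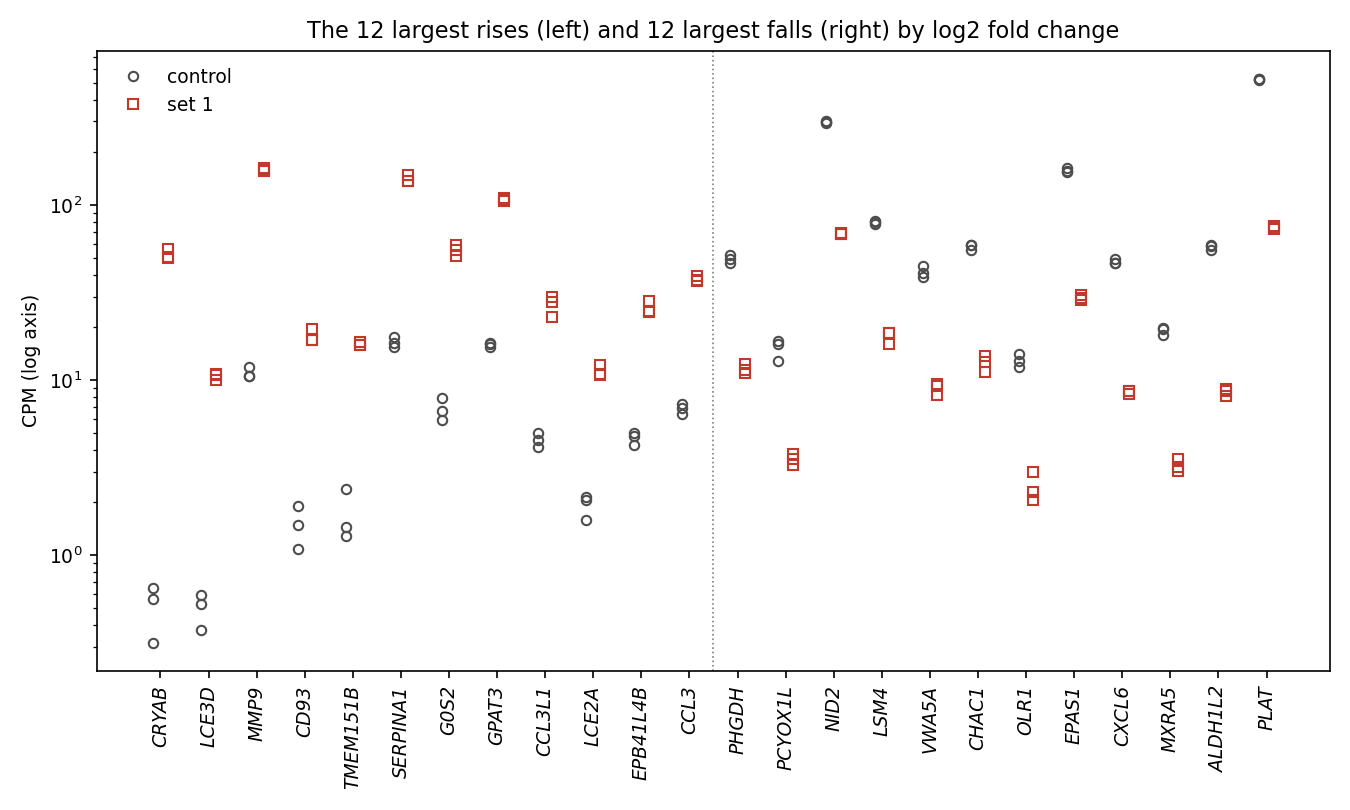
Levels (CPM, log axis) of the 12 genes with the largest rise and the 12 with the largest fall in set 1 (squares) against control (circles), 3 libraries each. The genes were picked for groups that do not overlap, so the gaps are part of the rule; CRYAB and LCE3D show the widest gaps among the rises and PLAT among the falls.

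The largest differences in CPM were also listed, a share of reads that depends on transcript length as well as on the number of transcripts. By this measure IL1B gained the most, from 4984, 4911 and 4932 to 7630.2, 7546 and 7678 CPM, ahead of SERPINB2, the plasminogen activator inhibitor type 2 (1286 to 3719.9 CPM on average, 2.89-fold), and the mitochondrial ribosomal RNA MT-RNR2 (6311 to 8607 CPM, 1.36-fold). ANXA2, an annexin that binds plasminogen at the cell surface, went from 3162 to 5452 CPM (1.72-fold), ACTB from 6975 to 9229 CPM (1.32-fold) and the collagen crosslinking enzyme PLOD2 from 1824 to 3925 CPM (2.15-fold). CXCL8 lost the most, from 8837, 8768 and 8705 to 4616, 4658 and 4667 CPM. Fibronectin, FN1, followed with 10464 to 7111 CPM (1.47-fold lower), then cathepsin B, CTSB (2939 to 1592 CPM, 1.85-fold lower), COL6A3 (4906 to 3611 CPM, 1.36-fold lower), the IGF binding protein IGFBP5 (3834 to 2618 CPM, 1.46-fold lower) and COL6A2 (3539 to 2382 CPM, 1.49-fold lower). All 12 were called and their groups did not overlap, as the rule that picked them required.

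The following groups come from 42 gene lists written from general knowledge, with earlier results of these data known. They are described by how many tested members were called and by their median. Beside these stand the 27.3% of all genes called higher, the 26.5% called lower and the median of -0.0019 over all genes. Abundant genes were called more often: with at least 5 CPM in 3 libraries required, 7169 of 10636 were called. The shares over all genes are thus not matched to lists of abundant genes. The plot of all lists shows the collagens, interferon-stimulated genes and integrated stress response genes at the low end and the Notch, heat shock and p53 target lists at the high end.

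**Figure D3:**
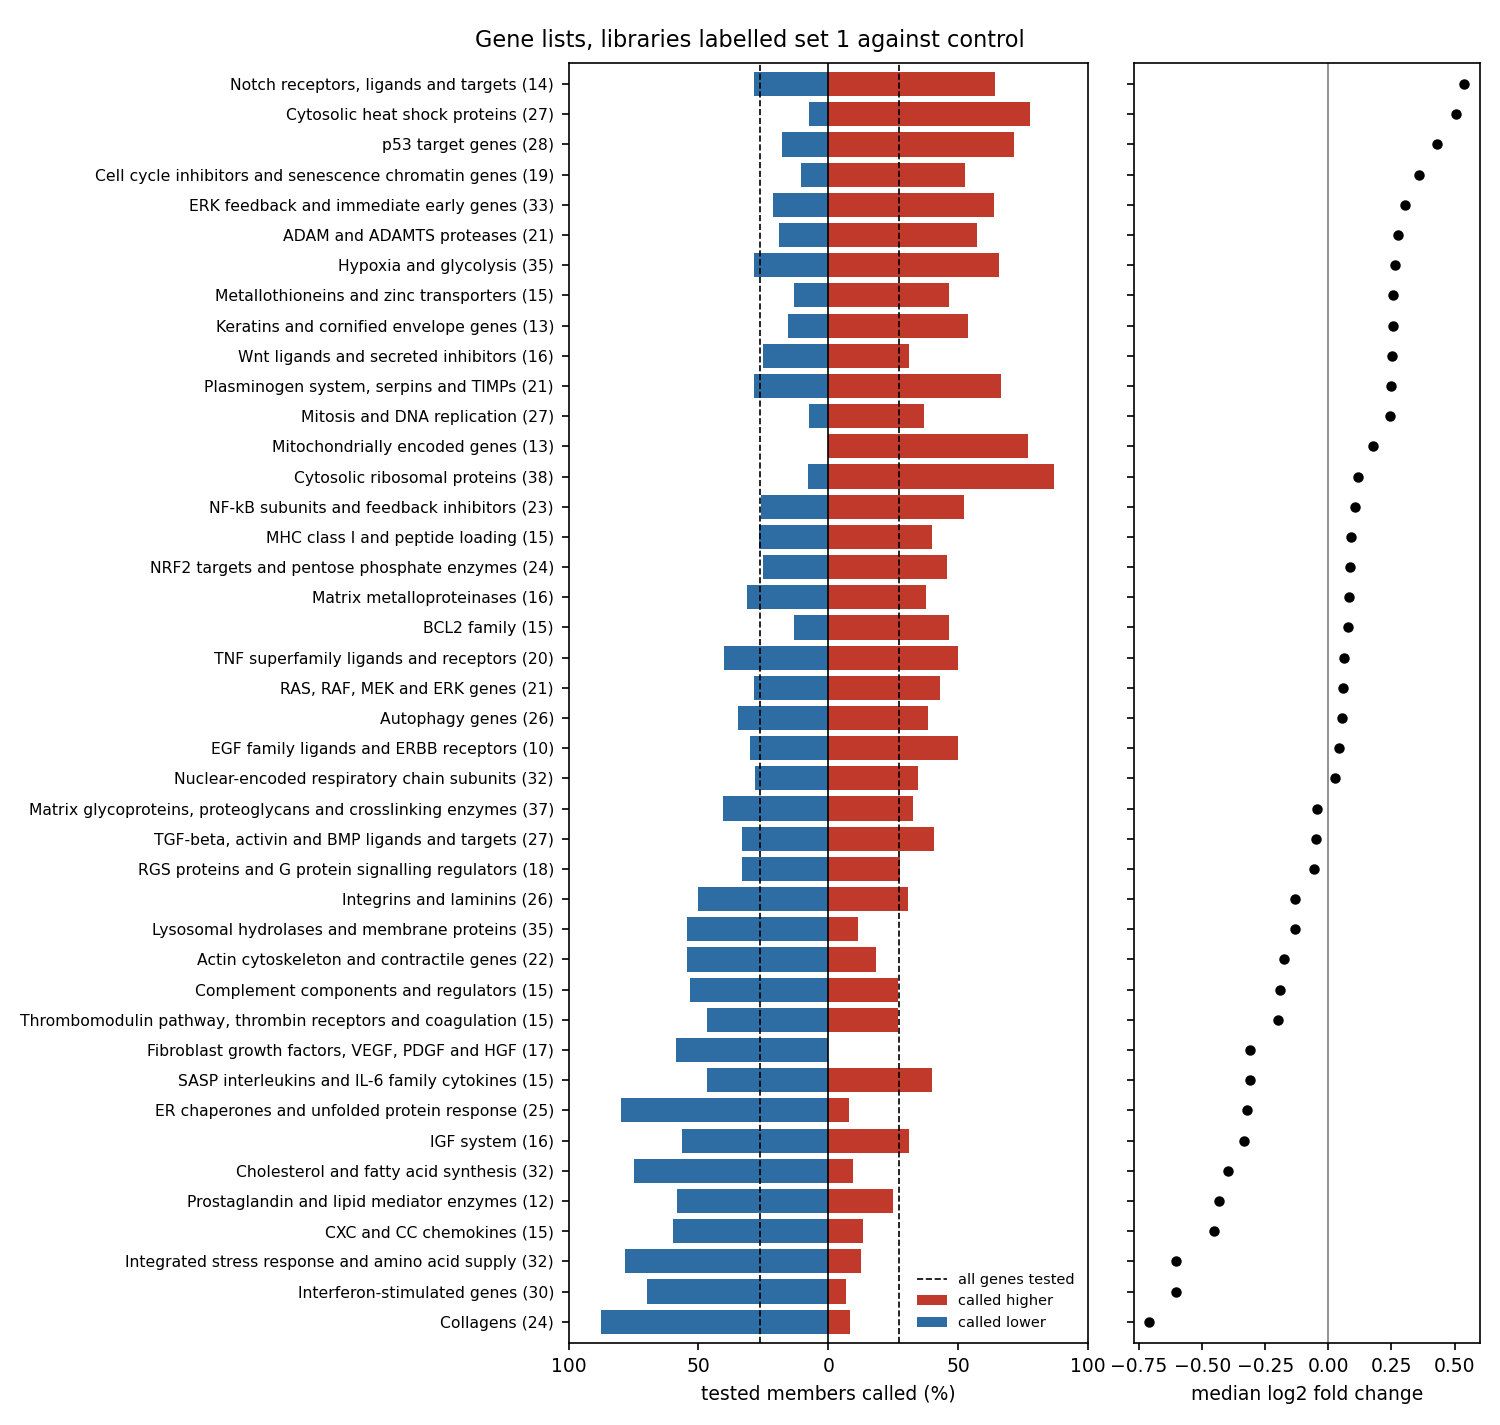
For each of 42 gene lists (tested members in brackets), the percent of tested members called higher (red, right) or lower (blue, left) in set 1 against control, with dashed lines at the shares over all genes tested, and at right the median log2 fold change. Collagens have the lowest median, -0.71, and the Notch list the highest, 0.54.

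Cytosolic heat shock genes were mostly higher. These chaperones hold or refold damaged proteins, and their genes are switched on by the factor HSF1, which binds repeats of GAA and its reverse complement TTC, the heat shock element. Of the heat shock list, 21 of 27 tested members rose and 2 fell, with a median log2 fold change of 0.51; 5 members were at least 2-fold higher. The promoters of 3 members that rose are shown, picked among those that hold a match. Capitals mark the letters GAANNTTC, a pair of facing repeats, searched on both strands over the 250 bases before the start in RefSeq (GRCh38.p14).
HSPA6, chr1:161524290-161524539, plus strand: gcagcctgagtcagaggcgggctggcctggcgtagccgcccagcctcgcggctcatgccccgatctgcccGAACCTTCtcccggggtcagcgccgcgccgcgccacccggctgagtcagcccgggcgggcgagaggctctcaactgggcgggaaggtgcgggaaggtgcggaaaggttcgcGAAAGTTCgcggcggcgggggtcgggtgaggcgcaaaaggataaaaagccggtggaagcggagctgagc
HSPA1A, chr6:31815293-31815542, plus strand: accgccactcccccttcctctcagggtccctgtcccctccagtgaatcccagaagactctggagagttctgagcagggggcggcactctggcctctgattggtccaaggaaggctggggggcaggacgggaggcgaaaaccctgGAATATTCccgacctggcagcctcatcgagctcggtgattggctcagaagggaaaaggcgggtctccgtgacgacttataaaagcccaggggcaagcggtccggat
DNAJB1, chr19:14518398-14518647, minus strand: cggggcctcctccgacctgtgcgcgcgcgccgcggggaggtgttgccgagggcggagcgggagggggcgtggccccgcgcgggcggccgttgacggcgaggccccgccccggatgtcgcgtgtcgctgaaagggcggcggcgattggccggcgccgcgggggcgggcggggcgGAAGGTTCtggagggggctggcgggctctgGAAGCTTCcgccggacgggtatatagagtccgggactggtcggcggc
HSPA6 and DNAJB1 each hold 2 matches and HSPA1A holds 1, which begins 106 bases before the start. DNAJB1 has 3 promoters in the table, of which only the one shown has a match. A match stood in 15 of 35 promoters (42.9%) of the tested list members, which cover 25 genes, and in 2030 of all 35116 promoters (5.78%). HSPB6, a member that fell, has a match as well, while BAG3 and HSPH1, which rose, have none. CRYAB, the largest rise, had no promoter entry to search. The list was written from heat shock genes, so its high share comes with the choice of genes and says nothing about set 1. A match is only a description of the letters, and no binding was measured.

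HSPA6, an inducible HSP70 that is nearly silent in unstressed cells, read 1.21, 1.08 and 2.06 CPM in control and 8.82, 10.7 and 9.34 CPM in set 1 (6.5-fold, log2 fold change 2.70 ± 0.20). HSPA1A, the main inducible HSP70, read 21.1, 20.5 and 20.004 and 109.9, 112 and 108 CPM (5.35-fold, 2.42 ± 0.055), and its near-identical copy HSPA1B, whose reads may be split with it, 15.8, 14.8 and 14.2 and 52.7, 57.5 and 61.4 CPM (1.94 ± 0.073). For each of these genes the lowest set 1 library was above the highest control library. The rise reached partner proteins of HSP70, such as BAG3 (0.85 ± 0.032), DNAJB1 (0.80 ± 0.031) and HSPH1 (0.71 ± 0.027), the small heat shock proteins HSPB8 (0.88 ± 0.086) and HSPB1 (0.70 ± 0.027), and both cytosolic HSP90 genes, HSP90AA1 (0.56 ± 0.019) and HSP90AB1 (0.33 ± 0.019). HSF1 itself was higher by only 0.11 ± 0.033. HSPB6 (-1.34 ± 0.13) and DNAJB2 (-0.36 ± 0.05) fell.

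Genes of the integrated stress response and of amino acid supply were mostly lower. In this response, the factor ATF4 raises transcription of amino acid transporters, of the enzymes that make serine, glycine and asparagine, and of tRNA synthetases; its sites often take the form TGATGNAA. Of this list, 4 of 32 tested members rose and 25 fell, with a median log2 fold change of -0.60; 12 members were at least 2-fold lower, and none was 2-fold higher. The promoters of 3 members that fell are shown, picked among those that hold a match, with TGATGNAA or its reverse complement TTNCATCA in capitals.
CHAC1, chr15:40953221-40953470, plus strand: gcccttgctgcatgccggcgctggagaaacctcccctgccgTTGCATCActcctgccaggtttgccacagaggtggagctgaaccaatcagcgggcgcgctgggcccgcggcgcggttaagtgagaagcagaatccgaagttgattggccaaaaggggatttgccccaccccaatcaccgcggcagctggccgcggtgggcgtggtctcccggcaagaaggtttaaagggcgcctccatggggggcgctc
AARS1, chr16:70289507-70289756, minus strand: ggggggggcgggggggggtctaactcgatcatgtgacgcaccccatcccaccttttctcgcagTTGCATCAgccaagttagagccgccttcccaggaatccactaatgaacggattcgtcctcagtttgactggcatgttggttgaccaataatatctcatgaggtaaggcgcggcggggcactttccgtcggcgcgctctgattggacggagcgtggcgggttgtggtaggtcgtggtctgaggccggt
CEBPG, chr19:33373863-33374112, plus strand: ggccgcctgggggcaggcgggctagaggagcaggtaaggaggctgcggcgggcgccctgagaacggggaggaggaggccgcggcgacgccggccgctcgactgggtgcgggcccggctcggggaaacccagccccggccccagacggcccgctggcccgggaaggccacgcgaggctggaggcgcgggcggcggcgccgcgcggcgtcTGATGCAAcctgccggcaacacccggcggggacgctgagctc
Each window holds 1 match, which begins 209 bases before the start in CHAC1, 187 in AARS1 and 42 in the one of 2 CEBPG promoters that has it. Among the promoters of tested list members, 7 of 42 (16.7%), from 26 genes, hold a match, against 1104 of all 35116 (3.14%). ATF3, which was not called, has a match as well. SLC6A9, PHGDH, PCK2, PSAT1 and DDIT3, which fell, have none. Here too the share comes with the choice of genes, a match describes only the letters, and no binding was measured.

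CHAC1, which degrades glutathione and is a well-known ATF4 target, read 55.6, 58.9 and 59.4 CPM in control and 11.1, 13.7 and 12.6 CPM in set 1 (4.63-fold lower, log2 fold change -2.21 ± 0.075). PHGDH, the first enzyme of serine synthesis, read 51.6, 46.9 and 49.1 and 12.4, 11.02 and 11.4 CPM (4.24-fold lower, -2.08 ± 0.078). ALDH1L2, of mitochondrial folate metabolism, read 58.1, 59.04 and 55.1 and 8.08, 8.67 and 8.88 CPM (6.7-fold lower, -2.74 ± 0.076), with exons that share bases with WASHC4 and C12orf45 on the other strand. None of the 3 genes had a set 1 library inside the control range. The other serine enzymes PSAT1 (-1.50 ± 0.067) and PSPH (-1.19 ± 0.10) fell too, as did the glycine transporter SLC6A9 (-3.33 ± 0.25), the mitochondrial enzyme PCK2 (-1.62 ± 0.076) and the alanyl-tRNA synthetase AARS1 (-1.51 ± 0.037). The factors ATF4 (-0.73 ± 0.031), DDIT3 (-1.16 ± 0.094) and CEBPG (-0.66 ± 0.065) were lower, while CEBPB (0.32 ± 0.03), the leucine transporter SLC7A5 (0.32 ± 0.029) and the phosphatase subunit PPP1R15A (0.14 ± 0.032) were higher. ATF3 (0.03 ± 0.093) and DDIT4 (0.01 ± 0.041) were not called. GDF15, a stress cytokine and marker of senescent secretion that belongs to another list, fell from 751, 729 and 736 to 299, 293 and 306 CPM (-1.30 ± 0.027).

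**Figure D4:**
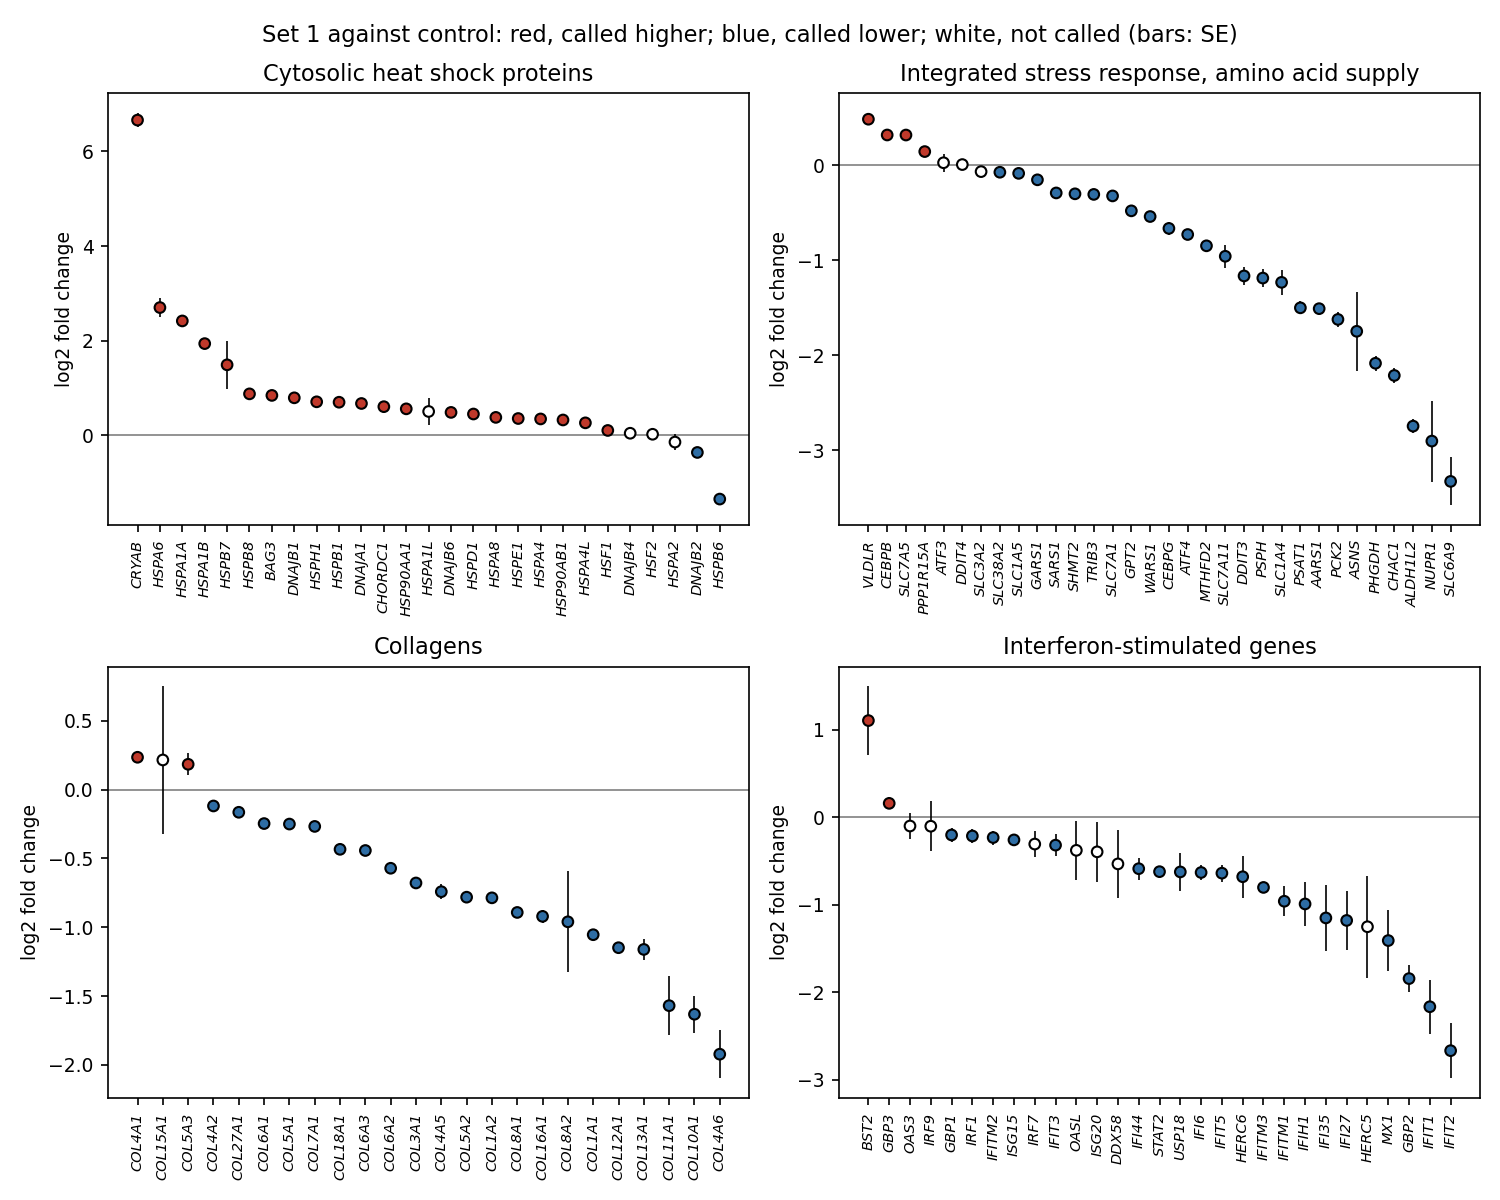
Log2 fold change of set 1 against control with its approximate standard error for the tested members of 4 lists: heat shock proteins, integrated stress response, collagens and interferon-stimulated genes, 1 of the last left out. Red points were called higher, blue lower and white were not called; CRYAB stands far above the other heat shock genes, and in each of the other 3 lists most points are blue and below 0.

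The endoplasmic reticulum arm of protein folding was mostly lower. Of its list, 2 of 25 tested members rose and 20 fell, with a median log2 fold change of -0.32, and no member reached 2-fold. HERPUD1, which clears misfolded proteins from this compartment, read 140.1, 138 and 136 CPM in control and 67.8, 71.4 and 75.2 CPM in set 1 (-0.95 ± 0.042), so the groups were well apart. SDF2L1 (-0.73 ± 0.053), EDEM1 (-0.69 ± 0.032) and DNAJC3 (-0.67 ± 0.042) followed, and the abundant chaperone HSPA5 was lower by a small amount, 2130.0 to 1725 CPM (-0.30 ± 0.019). XBP1, a factor of the unfolded protein response, fell (-0.55 ± 0.043) and ATF6, another, rose (0.32 ± 0.04).

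Collagen genes formed the list with the lowest median. Of the collagens, 2 of 24 tested members rose and 21 fell, with a median log2 fold change of -0.71; 1 rose with any 1 control library or set 1 replicate 1 left out. COL1A1, which with COL1A2 forms type I collagen, the main fibre of connective tissue, read 1750.3, 1752 and 1770.3 CPM in control and 862, 821 and 856 CPM in set 1 (2.08-fold lower, -1.05 ± 0.018). COL1A2 read 799.8, 793 and 781 and 470.5, 445 and 461 CPM (1.72-fold lower, -0.79 ± 0.02). The set 1 libraries were the lower ones throughout. COL12A1, a fibril-associated collagen, fell by 1.15, from 147 to 66.3 CPM, and the transmembrane COL13A1 from 40.5 to 18.1 CPM (-1.16 ± 0.073). Only COL4A1 (0.24 ± 0.023) and COL5A3 (0.18 ± 0.079) were called higher, and COL15A1 (0.22 ± 0.54) was not called.

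Other matrix genes went both ways: 12 of 37 tested members rose and 15 fell, with a median log2 fold change of -0.04. POSTN, a matrix protein of activated fibroblasts, fell from 60.1, 64.1 and 54.1 to 13.6, 14.4 and 14.8 CPM (4.16-fold, -2.06 ± 0.073). HAPLN3, a hyaluronan link protein, rose from 28.5, 27.3 and 29.5 to 76.5, 75.02 and 79.7 CPM (2.71-fold, 1.44 ± 0.06), as did the crosslinking enzymes LOX (1.07 ± 0.026) and PLOD2 (1.11 ± 0.017). POSTN and HAPLN3 both had groups that did not overlap. Among integrins and laminins, 8 of 26 tested members rose and 13 fell, with a median log2 fold change of -0.13; ITGB8, which helps to activate TGF-beta, went from 39.5 to 11.4 CPM (-1.79 ± 0.087), the collagen receptor subunits ITGA11 and ITGA1 fell by 1.29 and 1.04, and the laminin LAMB3 rose by 1.35 ± 0.064. Of the actin and contractile genes, 4 of 22 tested members rose and 12 fell, with a median log2 fold change of -0.18, with TPM1 from 599.7 to 291 CPM (-1.04 ± 0.024). ANKRD1, a target of mechanical signalling, was higher, from 1.26 to 5.19 CPM (2.04 ± 0.21).

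Secreted inflammatory genes did not move as a block. Of the interleukin list, 6 of 15 tested members rose and 7 fell, with a median log2 fold change of -0.31. IL1B, a cytokine at the head of RAS-driven secretion, read 4984, 4911 and 4932 CPM in control and 7630.2, 7546 and 7678 CPM in set 1 (1.54-fold higher, 0.62 ± 0.015). IL1A, its partner on the same receptor, read 483, 460.1 and 450.5 and 489, 519 and 503 CPM, a rise of 0.12 ± 0.027 whose groups were apart by a narrow gap. IL6, a main product of the pathway, went the other way, from 424, 416 and 418 to 249.6, 247 and 247 CPM (1.69-fold lower, -0.76 ± 0.028), with all set 1 libraries below control. The IL-6 family member CLCF1 (18.4 to 39.03 CPM, 1.08 ± 0.078) and IL24 (0.848 to 8.17 CPM, 3.26 ± 0.24) rose, IL11 (0.42 ± 0.021) and CSF3 (0.56 ± 0.027) rose by less, and TSLP (5.95 to 2.41 CPM, -1.30 ± 0.18) and CSF2 (-0.55 ± 0.043) fell.

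Chemokines were mostly lower: 2 of 15 tested members rose and 9 fell, with a median log2 fold change of -0.45. CXCL8, the neutrophil attractant IL-8, read the values given above, 1.89-fold lower (-0.92 ± 0.016). CXCL6, from the same family, read 48.9, 46.6 and 46.3 CPM in control and 8.71, 8.67 and 8.37 CPM in set 1 (5.51-fold lower, -2.46 ± 0.085). CCL2, which draws monocytes, read 148, 134 and 139 and 36.03, 34.7 and 36.5 CPM (3.92-fold lower, -1.97 ± 0.046). These groups were all apart. CXCL1 (-0.37 ± 0.025), CXCL2 (-0.21 ± 0.034), CXCL3 (-0.35 ± 0.025) and CXCL5 (-0.49 ± 0.019), which use the same receptor as CXCL8, fell by less; CXCL1, CXCL2 and CXCL3 are close copies whose reads may be split. CCL20 stood at 128 and 127 CPM and was not called (log2 fold change -0.01 ± 0.04). Among the genes of NF-kB and its brakes, 12 of 23 tested members rose and 6 fell, with a median log2 fold change of 0.11; NFKBIE (0.996 ± 0.063), ICAM1 (540.2 to 1070.1 CPM, 0.99 ± 0.022) and BIRC3 (0.81 ± 0.10) rose while TNFAIP3 fell (-0.65 ± 0.038).

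Of the matrix metalloproteinases, 6 of 16 tested members rose and 5 fell, with a median log2 fold change of 0.08. Beside MMP9, the collagenase MMP1 rose from 3509, 3489 and 3431 to 5296, 5323 and 5379 CPM (0.62 ± 0.016), MMP19 from 23.2 to 43.5 CPM (0.90 ± 0.068) and the stromelysin MMP3 from 1411 to 2077 CPM (0.56 ± 0.021). MMP12, the macrophage elastase, fell from 7.96 to 5.25 CPM (-0.59 ± 0.14). Among ADAM and ADAMTS proteases, 12 of 21 tested members rose and 4 fell, with a median log2 fold change of 0.27, with rises of ADAMTS1 (1.08 ± 0.037) and ADAMTS4 (0.95 ± 0.073) and falls of ADAMTS14 (-1.99 ± 0.19) and ADAMTS5 (-1.43 ± 0.19).

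Genes of the plasminogen system and other protease inhibitors were more often higher than lower. PLAT, the tissue activator, fell as described, whereas PLAU, the urokinase activator, was higher by 0.35 ± 0.021 and its receptor PLAUR by 0.25 ± 0.023. SERPINB2, an inhibitor of plasminogen activators, read 1292, 1296 and 1268 CPM in control and 3697, 3747 and 3716 CPM in set 1 (2.89-fold higher, 1.53 ± 0.019). All its set 1 libraries were above control. TIMP3, an inhibitor of metalloproteinases, rose from 433, 431 and 439 to 1338, 1297 and 1290.3 CPM (3.01-fold, 1.59 ± 0.021), and elafin, PI3, an elastase inhibitor, from 12.2, 10.9 and 10.7 to 58.1, 59.6 and 57.7 CPM (5.19-fold, 2.38 ± 0.079). Over the whole list, 14 of 21 tested members rose and 6 fell, with a median log2 fold change of 0.25.

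The list of thrombomodulin pathway, thrombin receptor and coagulation genes moved both ways. Of its members, 4 of 15 tested rose and 7 fell, with a median log2 fold change of -0.20, THBD among the rises. F2R, the thrombin receptor PAR1, read 424, 437 and 430.3 CPM in control and 239, 259 and 245 CPM in set 1 (1.74-fold lower, -0.80 ± 0.028). F3, tissue factor, which starts clotting, read 115, 116 and 120.3 and 199, 204 and 203 CPM (1.72-fold higher, 0.79 ± 0.031). Both pairs of groups were apart. The receptors F2RL1 (PAR2, -0.78 ± 0.034) and F2RL2 (PAR3, -0.71 ± 0.077) fell with F2R, and F2RL3 (PAR4) was higher from a low level (0.536 to 1.7 CPM, 1.67 ± 0.41). The protein C receptor PROCR was lower (65.6 to 52.6 CPM, -0.32 ± 0.05), and the complement brake CD55 went from 184 to 87.8 CPM (-1.07 ± 0.038). The protein C cofactor PROS1 was not called (0.14 ± 0.076).

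RAS signals through RAF, MEK and ERK, and ERK activity switches on its own brakes, the DUSP phosphatases and the Sprouty proteins. Of the list of ERK feedback and immediate early genes, 21 of 33 tested members rose and 7 fell, with a median log2 fold change of 0.30. DUSP1 went from 193 to 354 CPM (0.88 ± 0.03), FOSL1 from 108 to 189 CPM (0.82 ± 0.036) and SPRY2 from 138 to 232 CPM (0.75 ± 0.034). DUSP6, a phosphatase of ERK itself, rose by 0.32 ± 0.027. The ERK-linked factors ETV1 (-1.05 ± 0.089), ETV5 (-0.41 ± 0.044) and EGR2 (-0.90 ± 0.15) and the cyclin CCND1 (2011 to 1246 CPM, -0.69 ± 0.019) fell. Of the pathway's own genes, 9 of 21 tested members rose and 6 fell, with a median log2 fold change of 0.06; RASA2, which turns RAS off, rose from 42.1, 43.9 and 44.6 to 96.02, 102 and 98.2 CPM (1.18 ± 0.05), with groups well apart.

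Of the list of fibroblast growth factors, VEGF, PDGF and HGF, no member was called higher: 0 of 17 tested members rose and 10 fell, with a median log2 fold change of -0.31. By edgeR's unadjusted p under 0.05, 0 were higher as well, and DESeq2 and limma voom also called 0 higher. FGF7, the keratinocyte growth factor, read 44.04, 46.9 and 44.5 CPM in control and 18.9, 18.8 and 20.3 CPM in set 1 (-1.22 ± 0.071), and HGF 122, 122 and 123 and 70.8, 73.04 and 67.4 CPM (-0.80 ± 0.042). Neither gene had overlapping groups. In the IGF system, 5 of 16 tested members rose and 9 fell, with a median log2 fold change of -0.33; IGFBP4 (721 to 417 CPM, -0.79 ± 0.023) fell together with PAPPA (-0.96 ± 0.047) and PAPPA2 (-1.11 ± 0.14), proteases that cleave IGF binding proteins. Among TGF-beta, activin and BMP genes, 11 of 27 tested members rose and 9 fell, with a median log2 fold change of -0.05; the BMP antagonist GREM1 fell from 1409.9, 1445 and 1421 to 576, 570.1 and 557 CPM (-1.33 ± 0.021), the activin antagonist FST from 45.4 to 11.9 CPM (-1.93 ± 0.078), and BMP6 rose from 4.46 to 20.2 CPM (2.18 ± 0.12; its exons share bases with TXNDC5 on the other strand). Of the EGF family, 5 of 10 tested members rose and 3 fell, with a median log2 fold change of 0.04, with HBEGF (0.30 ± 0.038) and EREG (0.24 ± 0.028) higher.

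The Notch list had the highest median of all: 9 of 14 tested members rose and 4 fell, with a median log2 fold change of 0.54. NOTCH1 read 73.1, 75.7 and 78.2 CPM in control and 130.1, 125 and 131 CPM in set 1 (1.7-fold higher, 0.77 ± 0.043), without overlap. NOTCH4 (1.58 to 7.38 CPM, 2.22 ± 0.20) and the ligand JAG2 (7.07 to 13.5 CPM, 0.92 ± 0.12) rose, as did the target NRARP (0.429 to 2.93 CPM, 2.77 ± 0.37), whereas NOTCH2 (-0.22 ± 0.028), NOTCH3 (-0.20 ± 0.037) and the ligand DLL4 (6.0004 to 2.11 CPM, -1.52 ± 0.22) fell. In the Wnt list, 5 of 16 tested members rose and 4 fell, with a median log2 fold change of 0.25 (3 rose and 4 fell where at least 5 CPM was required), led by the ligand WNT7B, from 49.9, 51.4 and 49.2 to 152, 145 and 151 CPM (2.98-fold higher, 1.58 ± 0.046). In the TNF superfamily, 10 of 20 tested members rose and 8 fell, with a median log2 fold change of 0.06; the decoy receptor TNFRSF10D fell from 827, 831 and 815 to 229, 223 and 219 CPM (3.69-fold, -1.88 ± 0.025) and the death receptors FAS (0.86 ± 0.072) and TNFRSF10B (0.63 ± 0.023) rose.

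Beside CDKN1A, most target genes of p53, the factor that answers DNA damage, were higher: 20 of 28 tested members rose and 5 fell, with a median log2 fold change of 0.43. SESN2, which restrains growth signalling under stress, read 55.03, 54.8 and 55.2 CPM in control and 128, 126 and 124 CPM in set 1 (2.29-fold higher, 1.19 ± 0.043). BTG2 (13.6 to 27.3 CPM, 1.01 ± 0.075), SESN1 (8.95 to 17.8 CPM, 0.996 ± 0.10), TIGAR (12.3 to 23.6 CPM, 0.95 ± 0.086) and MDM2 (77.6 to 119 CPM, 0.62 ± 0.039) rose as well, while DDB2 (-0.34 ± 0.088) and BAX (-0.23 ± 0.04) fell. Of the list of cell cycle inhibitors and senescence chromatin genes, 10 of 19 tested members rose and 2 fell, with a median log2 fold change of 0.36, with HMGA2 from 716 to 1149.9 CPM (0.68 ± 0.021). Of the mitosis and replication genes, 10 of 27 tested members rose and 2 fell, with a median log2 fold change of 0.25 (4 fell under upper-quartile scaling and 1 without set 1 replicate 3); they remained at low levels, RRM2 going from 6.72 to 12.9 CPM (0.94 ± 0.13), CCNB1 from 8.04 to 12.5 CPM (0.64 ± 0.11) and MCM5 from 7.57 to 11.1 CPM (0.55 ± 0.12). In the BCL2 family, 7 of 15 tested members rose and 2 fell, with a median log2 fold change of 0.08; MCL1, which protects cells from death, rose from 913 to 1287 CPM (0.50 ± 0.021) and BAK1, which promotes death, from 44.5 to 87.1 CPM (0.97 ± 0.047).

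Genes of hypoxia and glycolysis were mostly higher. Of this list, 23 of 35 tested members rose and 10 fell, with a median log2 fold change of 0.27. SLC2A3, a glucose transporter, read 187, 182 and 190.0 CPM in control and 466, 458 and 456 CPM in set 1 (2.47-fold higher, 1.30 ± 0.025). The enzymes LDHA (1379 to 2204 CPM, 0.68 ± 0.019), PGK1 (0.50 ± 0.02) and ENO1 (0.42 ± 0.019) rose, as did the hypoxia target ADM (72.4 to 159.7 CPM, 1.14 ± 0.04). Of the hypoxia-inducible factors, EPAS1 fell as described, and HIF1A was lower by 0.41 (638 to 480.4 CPM).

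Lipid synthesis genes were mostly lower. Of the cholesterol and fatty acid list, 3 of 32 tested members rose and 24 fell, with a median log2 fold change of -0.40. FADS2, a desaturase of polyunsaturated fatty acids, read 122, 133 and 129.7 CPM in control and 43.8, 38.7 and 42.1 CPM in set 1 (3.09-fold lower, -1.63 ± 0.048), and its neighbour FADS1 went from 179 to 85.9 CPM (-1.06 ± 0.037); their exons share bases. FASN, the fatty acid synthase, went from 723 to 365 CPM (-0.99 ± 0.024) and its regulator SREBF1 from 176 to 109 CPM (-0.69 ± 0.036). INSIG1, which holds this pathway back, rose (111 to 172 CPM, 0.63 ± 0.036). Of the prostaglandin genes, 3 of 12 tested members rose and 7 fell, with a median log2 fold change of -0.43, with PTGS2 (COX-2) from 269, 268 and 263 to 119, 128 and 129 CPM (2.13-fold lower, -1.09 ± 0.034).

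HMOX1, heme oxygenase, rose from 41.2, 44.5 and 39.1 to 124, 128 and 128 CPM (3.05-fold, 1.61 ± 0.049) and NQO1 from 31.9 to 63.1 CPM (0.98 ± 0.056), both targets of the antioxidant factor NRF2, in whose list 11 of 24 tested members rose and 6 fell, with a median log2 fold change of 0.09. SLC7A11, the cystine transporter that belongs to this list and to the amino acid list, fell (14.4 to 7.44 CPM, -0.96 ± 0.12). Of the metallothionein and zinc genes, 7 of 15 tested members rose and 2 fell, with a median log2 fold change of 0.26 (1 fell without control replicate 2, set 1 replicate 1 or set 1 replicate 3), with MT2A from 2283, 2255 and 2275 to 2982, 3464 and 3495 CPM (0.55 ± 0.025). In set 1 the first library stood below the other 2 for MT2A and above control. Of the lysosomal genes, 4 of 35 tested members rose and 19 fell, with a median log2 fold change of -0.13, with CTSB (-0.88 ± 0.017) and MANBA (-1.03 ± 0.06) lower. In the autophagy list, 10 of 26 tested members rose and 9 fell, with a median log2 fold change of 0.05. Of the ribosomal protein genes, 33 of 38 tested members rose and 3 fell, with a median log2 fold change of 0.12, so almost all moved by a small amount, RPS19 by 0.33 ± 0.025. All 10 called mitochondrially encoded genes rose, of 13 tested (median 0.18), and of nuclear-encoded respiratory chain genes, 11 of 32 tested members rose and 9 fell, with a median log2 fold change of 0.02; without set 1 replicate 3, 7 rose and 9 fell.

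Interferon-stimulated genes, which act against viruses, were mostly lower: 2 of 30 tested members rose and 21 fell, with a median log2 fold change of -0.60. With at least 5 CPM required 13 fell; 0 rose without control replicate 3 or set 1 replicate 3, and 1 without control replicate 1, control replicate 2 or set 1 replicate 1. IFITM3, which blocks virus entry, read 199, 191 and 193 CPM in control and 109.8, 112 and 113 CPM in set 1 (1.74-fold lower, -0.80 ± 0.035), and GBP2 6.5, 7.44 and 5.76 and 1.83, 1.99 and 1.64 CPM (3.58-fold lower, -1.84 ± 0.16). The groups were apart for both. The signalling factor STAT2 (134 to 87.3 CPM, -0.62 ± 0.038) fell, and many members, such as IFIT1 (2.82 to 0.625 CPM) and MX1 (2.06 to 0.777 CPM), were near the lower limit of what was tested. Antigen presentation was mixed, 6 of 15 tested members rose and 4 fell, with a median log2 fold change of 0.09; the immunoproteasome subunits PSMB8 (-0.62 ± 0.086) and PSMB9 (-1.34 ± 0.20), whose exons overlap, fell. In the complement list, 4 of 15 tested members rose and 8 fell, with a median log2 fold change of -0.19; SERPING1, which restrains the C1 proteases, rose from 18.7 to 32.6 CPM (0.80 ± 0.077).

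The cells carried fibroblast markers in both groups, though at lower levels in set 1. Of 14 markers, 12 were tested, 2 rose (PDGFRA, 0.58 ± 0.035, and PDGFRB, 0.33 ± 0.047) and 9 fell, with a median log2 fold change of -0.50. Their summed level was 3929 to 3952 CPM in control and 2457 to 2521 CPM in set 1. COL1A1, COL1A2 and COL3A1, which are also in the collagen list, made up most of this sum. DCN was not called (-0.09 ± 0.074), and FBN1 moved by only -0.12 ± 0.025. TWIST1 (19.4 to 8.86 CPM, -1.12 ± 0.10) and TCF21 (6.52 to 3.16 CPM, -1.05 ± 0.15), factors of mesenchymal identity, were among the falls. In bulk RNA, fewer cells of a kind and less RNA per cell cannot be told apart.

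Markers of other cell types were few. Of 11 endothelial markers, 5 were tested: TIE1 (163 to 358 CPM, 1.13 ± 0.03) and ROBO4 (15.2 to 26.9 CPM, 0.82 ± 0.092) rose, VWF (3.33 to 1.21 CPM, -1.46 ± 0.26) and CLDN5 (3.26 to 1.38 CPM, -1.24 ± 0.28) fell, and TEK was not called. The defining endothelial genes CDH5, KDR and PECAM1 were at most 13 counts in any of the 6 libraries, beside the rises of THBD and CD93. The summed endothelial level was 185 to 193 CPM in control and 388 to 393 CPM in set 1, and TIE1 made up most of it. Of 12 leukocyte markers, 3 were tested, with LAPTM5 from 1.003, 1.78 and 1.26 to 9.4, 8.46 and 8.47 CPM (2.70 ± 0.21) and CSF1R higher by 0.52 ± 0.22; PTPRC stood at 4 to 7 counts in control and 5 to 16 in set 1, and CD3E and MS4A1 at 0 in all 6. Of 12 hepatocyte markers, SERPINA1 and AFP (0.312 to 0.866 CPM) were tested and rose, while ALB had at most 2 counts and APOB, FGA and FGB had 0 in all 6 libraries. Of 14 epithelial markers, 6 were tested. CLDN4 rose by 1.03 ± 0.18, CLDN7 by 1.45 ± 0.53 and KRT18 by 0.25 ± 0.048, and none fell. CLDN7 was near the filter, at 0.265 CPM in control and 0.747 CPM in set 1. A marker as low in control that fell might not have been tested. The 6 summed to 87.4 to 95.4 CPM in control and 105 to 113 CPM in set 1, while KRT5, KRT14 and GRHL2 were at 0. Of 8 smooth muscle markers, 6 were tested, 1 rose and 3 fell, RGS5 from 8.45 to 2.02 CPM (-2.06 ± 0.17). The part of other cells in the gene groups above was not tested.

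The libraries labelled set 2, which carry the same label of THBD knockdown, were also set directly against set 1. In that comparison 10709 of 15411 genes were called (69.5%), 5228 higher (33.9%) and 5481 lower (35.6%) in set 1, and the median size of the difference was 1.40-fold. Values of each set against control share the 3 control libraries, so they are given side by side beside the direct test of their difference. In set 2 against control 67.3% of genes were called, 33.2% higher and 34.1% lower. IL1B read 7630.2, 7546 and 7678 CPM in set 1 and 872, 878 and 865 CPM in set 2, on either side of control, a difference of 3.13 ± 0.017. MMP9 read 163, 156 and 159 and 1.7, 2.59 and 1.81 CPM, a difference of 6.28 ± 0.082.

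IL6 and CXCL8 were below control in both sets, by less in set 1: the log2 fold change of IL6 was -0.76 ± 0.028 in set 1 and -3.60 ± 0.036 in set 2, a difference of 2.84 ± 0.037, and that of CXCL8 was -0.92 ± 0.016 in set 1 and -3.25 ± 0.017 in set 2, a difference of 2.34 ± 0.017. COL1A1 was below control in set 1 and above it in set 2: -1.05 ± 0.018 in set 1 and 1.25 ± 0.018 in set 2, and its direct difference -2.30 ± 0.019. CRYAB was above control in both, 6.66 ± 0.15 in set 1 and 2.17 ± 0.27 in set 2, with a difference of 4.49 ± 0.11. CHAC1 was below control in both, -2.21 ± 0.075 in set 1 and -1.25 ± 0.067 in set 2, with a difference of -0.97 ± 0.082. CDKN1A hardly separated the sets, 0.81 ± 0.018 in set 1 and 0.71 ± 0.018 in set 2, although the difference of 0.11 ± 0.018 was called. Set 1 also held more HRAS RNA than set 2 by 0.09 ± 0.023.

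**Figure D5:**
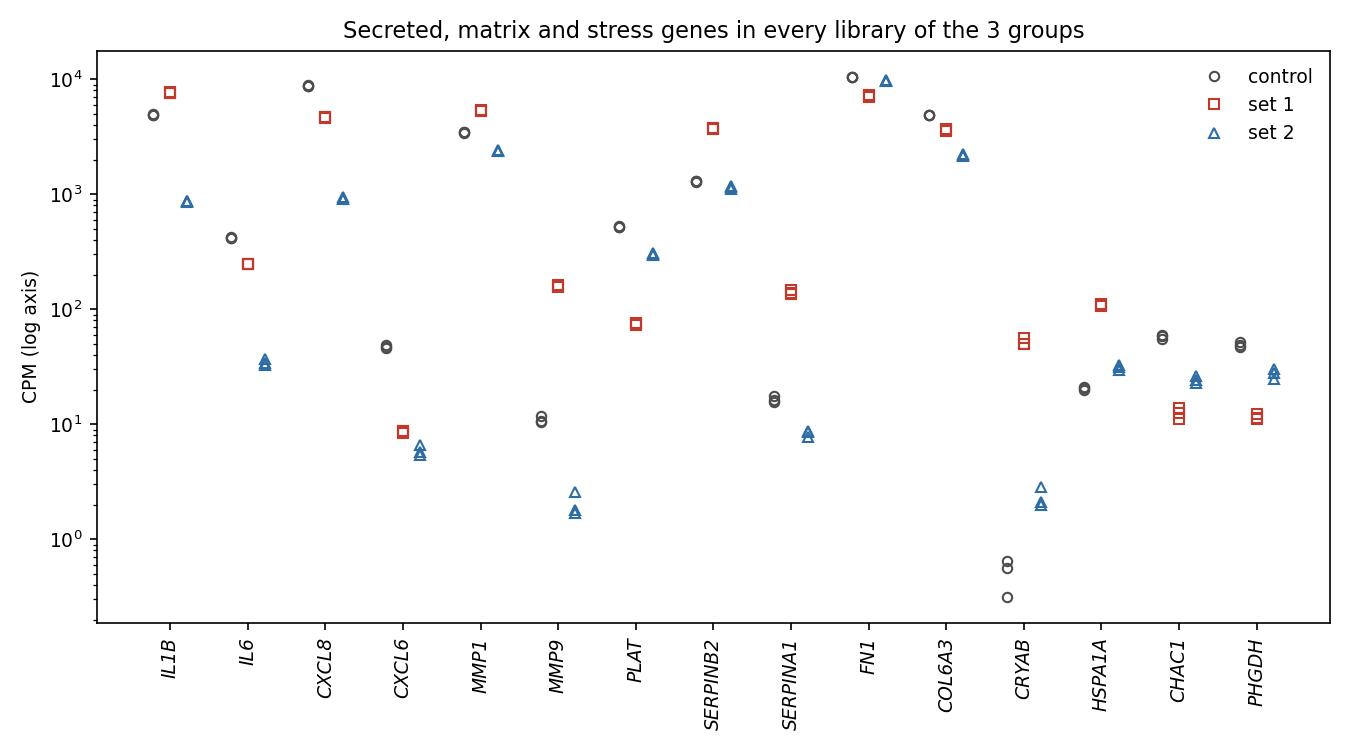
Levels (CPM, log axis) of secreted, matrix and stress genes in each library of control (circles), set 1 (squares) and set 2 (triangles). IL1B and MMP9 stand above control in set 1 and below it in set 2, IL6 and CXCL8 fall below control in both with set 2 the lower, and CRYAB is highest in set 1.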

How the data were processed

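Gene counts of 9 IMR90 libraries were used as the authors deposited them. The submitters' processing notes name fastp, STAR, featureCounts and the build GRCh38; per the file headers, fragments were assigned to GENCODE 38 genes by featureCounts 2.0.1, whose recorded command set no strand option. Libraries were placed by their titles. The chosen libraries, gene lists and rules were set with earlier results of these data known. Some genes are not reported here by name, though the counts over lists include them.

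The counts were fitted with edgeR 4.0.16 (R 4.3.3): filterByExpr, TMM scaling, and 1 quasi-likelihood fit over the 3 groups with no replicate block and 6 residual degrees of freedom. Contrasts were set 1 against control, set 1 minus set 2 and set 2 against control. P-values were adjusted by Benjamini and Hochberg over 15411 genes and called under 0.05. The standard error is the size of the log2 fold change divided by the square root of the test's F. CPM used the TMM-scaled library sizes. The fit was run on simulated data, where it recovered 81.6% of 98 planted 2-fold changes and 70.4% of 98 planted 1.5-fold changes. It made 7 false calls among 15411 genes. Far fewer genes were changed there than were called in these data, so this does not show how the fit does at such a share.

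Genes were named by rule: 14 fixed ones; the 12 largest rises and falls among called genes with at least 10 CPM in a group and no overlap; the 6 largest gains and losses in CPM; up to 4 called members of each list with at least 5 CPM; the 6 largest differences between the sets per direction; and members of families described. Alternatives were DESeq2 1.42.0 (its size factors and test), upper-quartile scaling, limma 3.58.1 voom, other filters, a fit of the 6 libraries compared alone, a block for the replicate number, and each library left out in turn. Promoters are 250 bases before the start from a RefSeq table (GRCh38.p14), matched by symbol.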

Additional observations from a re-analysis of the deposited data

Results flagged for a closer look

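Of the 35 fixed or most changed genes reported here, 13 were called in opposite directions in the libraries labelled set 1 and set 2, each against the same control, and the difference between the sets was itself called by edgeR's quasi-likelihood test. For all 13 set 1 was above control and set 2 below. Over all 15411 genes tested, 2479 (16.1%) met the same conditions, 1393 (9.04%) with set 1 above and set 2 below; 12 of the 35 were picked as the largest rises in set 1, so their direction in set 1 comes from the choice. The log2 difference, set 1 minus set 2, was 1.90 for THBD, and it was 2.79 for IL1A, 3.13 for IL1B, 6.28 for MMP9, 6.22 for LCE3D, 4.51 for CD93, 4.07 for SERPINA1, 4.65 for G0S2, 3.23 for GPAT3, 5.87 for CCL3L1, 3.84 for LCE2A, 3.55 for EPB41L4B and 3.63 for CCL3. CCL3 and CCL3L1, and LCE2A and LCE3D, are pairs of like genes whose reads may be shared. Groups of 3 libraries are too small for a check of single outlying libraries.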

How the results depend on the processing

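Of the 210 genes looked at singly, 209 kept their direction and their side of the threshold under all alternatives that gave a value, THBD among them (log2 fold change 1.01 to 1.15 with 1 library left out). The exception was NDUFB8, no longer called without control replicate 3 (0.32, adjusted p = 0.077) or set 1 replicate 3 (0.21, adjusted p = 0.24). The count called in set 1 against control was 7658 with DESeq2, 8250.0 with limma voom, 7944 without the filter, 7169 at 5 CPM or more in 3 libraries and 7633 to 7749 with 1 library left out. The split of those calls, 4213 higher and 4084 lower, became 3786 and 4486 under upper-quartile scaling, and between the sets 5228 and 5481 became 4514 and 6375. Of the 42 gene lists, 34 kept the larger of their counts higher and lower in the same direction under all alternatives; it turned for MHC class I and peptide loading, respiratory chain, RGS and Wnt genes and was tied under some for autophagy, metalloproteinase, interleukin and TGF-beta genes. Of the 84 counts of list members called higher or lower, 12 moved by over 1.5 times under at least 1 alternative, most of them counts of few genes. Between the sets, leaving out 1 library gave 10346 to 10442 calls. The count of genes called and changed at least 2-fold fell under the 5 CPM filter, which tests 10636 genes, to 496 for set 1 against control (1252 before), 1738 between the sets and 1428 for set 2 against control (the last added after seeing the data). No scaling moved the median of set 1 against control by over 0.1. Replicate numbers did not pair the libraries (correlations of same-numbered control and set 1 libraries of -0.016 to -0.0071); with a replicate block 8237 genes were called in set 1 against control and 10675 between the sets. Genes below about 1 CPM carry wide errors, and levels of 0 limit only what this depth can show. Reads were counted without regard to strand, so 69 of the 210 genes that share exon bases with a gene on the other strand are less certain.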

Other observations

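Some changes stood beside each other in the genome. Where adjacent tested genes were all called and at least 2-fold changed in 1 direction, runs of 6 occurred at 2 places. On chromosome 1 (GRCh38, 152579381 to 152911886), LCE3D, LCE2C, LCE2A, LCE1F, RP1-13P20.6 and IVL were all higher, the genes of the epidermal differentiation complex that build the outer layer of skin; IVL, involucrin, went from 0.932 to 5.92 CPM (2.66 ± 0.25). On chromosome 12 (7080214 to 7158945), C1R, C1RL, C1RL-AS1, RBP5, RP11-273B20.1 and CLSTN3 were all lower, C1R from 7.39 to 3.68 CPM (-1.002 ± 0.15); several of these overlap each other, so part of their reads cannot be told apart. CCL3, CCL4 and CCL3L1 formed a run of 3 on chromosome 17. Genes that failed the filter on low counts, other LCE genes among them, were skipped. LCE3D had 10, 11 and 8 counts in control and 187, 208 and 196 in set 1, the group where it was high. A gene as low in control that fell would hardly have been tested, so the filter favours runs of rises there. These runs were looked for after the values were seen and were not tested.

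Genes were classed by name from an older GENCODE release than the counts used. Of those matched as long non-coding, more were lower than higher: of 691 tested, 181 fell and 63 rose, with a median log2 fold change of -0.23. Of 12665 protein-coding genes, 3569 fell and 3922 rose, with a median of 0.011. A further 1576 tested genes had no match by name and are in neither class. Of these, 261 fell and 180 rose, with a median of -0.10.

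Among genes called in set 1 against control with at least 10 CPM in control or set 1, the 6 largest differences between the sets in each direction included MEDAG, a gene linked to fat cell differentiation (83.01, 75.96 and 76.02 CPM in set 1 and 2.65, 3.04 and 3.32 CPM in set 2), and, in the other direction, RGS4, a brake on G protein signalling (19.5, 19.96 and 20.9 and 375, 393 and 382 CPM), the collagen-binding proteoglycan LUM (22.2, 22.2 and 21.8 and 131, 137 and 127 CPM) and the retrotransposon-derived PEG10 (49.9, 50.9 and 48.5 and 305, 309.6 and 303 CPM).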
